A study of Homo sapiens with 4 samples.

Results

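Messages of 9 genes that the tumour suppressor p53 is known to switch on were followed in RNA released from HEK293T cells: MDM2, CDKN1A, AEN, BBC3, BAX, PMAIP1, GADD45A, ZMAT3 and PHLDA3. They were chosen by gene symbol, and all 9 were found among the 61543 genes of the deposited count table. The 9 and the gene lists below were chosen with earlier results of these data known. HEK293T is a human embryonic kidney line that carries the large T antigen of SV40, a viral protein known to bind p53. The cells released EPN24 nanocages, protein shells that leave the cell with RNA inside. In the first group, EPN24-Cas13d, the shell protein was fused to Cas13d, a CRISPR protein that binds RNA; in the second, EPN24, it was used alone. No guide RNA, DNA damage or other treatment is named for either group, and each group had 2 libraries. The RNA came from 200 µl of cleared, filtered culture supernatant with synthetic ERCC spike-in RNA added, so RNA inside and outside the shells is not separated. The comparison asks which cellular RNAs leave with the shell when Cas13d is attached to it. The labels do not say whether replicates were separate cultures, and every p-value therefore rests on the spread between these libraries alone, which may be technical.

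Gene counts per library were 5097332 and 4863449 for EPN24-Cas13d and 1830860 and 1903492 for EPN24, and gene counts per ERCC count were 56.9 and 59.3 against 4.11 and 3.79. Of 12 markers that HEK293T expresses, 11 exceeded 3 counts in every library, with summed levels of 4848 to 4963 CPM (counts per 1000000 counts of the scaled library) in EPN24-Cas13d and 1408 to 1410 in EPN24. Of 14 markers of other cell types, 2 did so, HBA1 and INS were at 0 throughout, and the sums were 8.17 to 8.31 against 70.3 to 93.0 CPM. The part of these differences in the results below was not tested. In bulk RNA of this kind, fewer releasing cells, fewer shells and less RNA per shell cannot be told apart.

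The p53 protein is a transcription factor that binds DNA near its target genes after stress such as DNA damage and raises their transcription. Some targets stop the cell cycle, some drive apoptosis by opening the outer mitochondrial membrane, and some feed back on p53 or on growth signalling. MDM2 is the central feedback target, since its protein marks p53 for degradation. Several of these messages, MDM2 among them, are known to turn over quickly.

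The messages differ widely in base composition, and the first 165 coding bases show this directly. Those of 4 members are printed 5′ to 3′ from GENCODE release 29 (build GRCh38), 2 from messages with a higher share and 2 from messages with a lower share in EPN24-Cas13d. Capitals mark runs of at least 5 consecutive G or C bases. For PMAIP1 the stretch is the whole coding sequence.

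BBC3: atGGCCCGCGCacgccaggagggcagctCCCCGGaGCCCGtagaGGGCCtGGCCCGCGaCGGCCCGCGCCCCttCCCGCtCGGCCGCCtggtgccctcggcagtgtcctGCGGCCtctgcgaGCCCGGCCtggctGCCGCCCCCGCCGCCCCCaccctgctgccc

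CDKN1A: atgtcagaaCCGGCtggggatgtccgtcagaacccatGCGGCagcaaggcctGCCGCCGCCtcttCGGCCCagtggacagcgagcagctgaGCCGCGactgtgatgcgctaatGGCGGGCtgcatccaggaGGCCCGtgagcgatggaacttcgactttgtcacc

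MDM2: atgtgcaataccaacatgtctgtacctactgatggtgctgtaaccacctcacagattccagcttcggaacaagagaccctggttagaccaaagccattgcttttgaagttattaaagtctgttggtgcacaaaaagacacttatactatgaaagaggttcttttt

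PMAIP1: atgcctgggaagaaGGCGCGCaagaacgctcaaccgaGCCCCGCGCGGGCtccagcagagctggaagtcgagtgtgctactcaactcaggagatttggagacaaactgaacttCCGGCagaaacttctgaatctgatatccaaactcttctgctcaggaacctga

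The stretch of BBC3 was 81.2% G or C, with 91 bases in such runs, and that of CDKN1A was 64.2% with 44 bases. The stretch of MDM2 was 40.6% G or C and held no run of this length, while that of PMAIP1 was 53.9% with 25 bases, most of them near its start. Over 15128 tested protein-coding genes the median stretch was 57.6% G or C with 21 bases in runs. The lowest decile of stretch GC content ended at 43.0% and the highest began at 72.1%, so that MDM2 fell in the lowest and BBC3 in the highest.

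As shares of each library, the 9 messages went both ways: 5 were higher in EPN24-Cas13d (AEN, PHLDA3, CDKN1A, BBC3 and BAX), 3 were lower (PMAIP1, MDM2 and GADD45A) and ZMAT3 did not pass the test. All 9 passed the filter on low counts. Levels are CPM scaled by TMM, a trimmed mean that assumes most genes keep their share. A gene was called where the quasi-likelihood test of edgeR gave a Benjamini-Hochberg adjusted p below 0.05 over 20476 genes. Most genes differ in this comparison: 80.9% of all tested genes were called, 32.6% higher and 48.2% lower, and among tested protein-coding genes 37.0% were higher and 42.9% lower. Against that background, 5 higher and 3 lower of 9 is not a result particular to these genes. The median log2 fold change was 1.79 for the 9 messages, -0.96 for all tested genes and -0.40 for tested protein-coding genes. A floor of 3 counts was worth 0.721 and 0.755 CPM with Cas13d and 1.34 and 1.42 CPM without. This floor and the intervals given for summed counts describe counting error alone, because no molecular identifiers separate PCR copies from molecules.

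**Figure D1:**
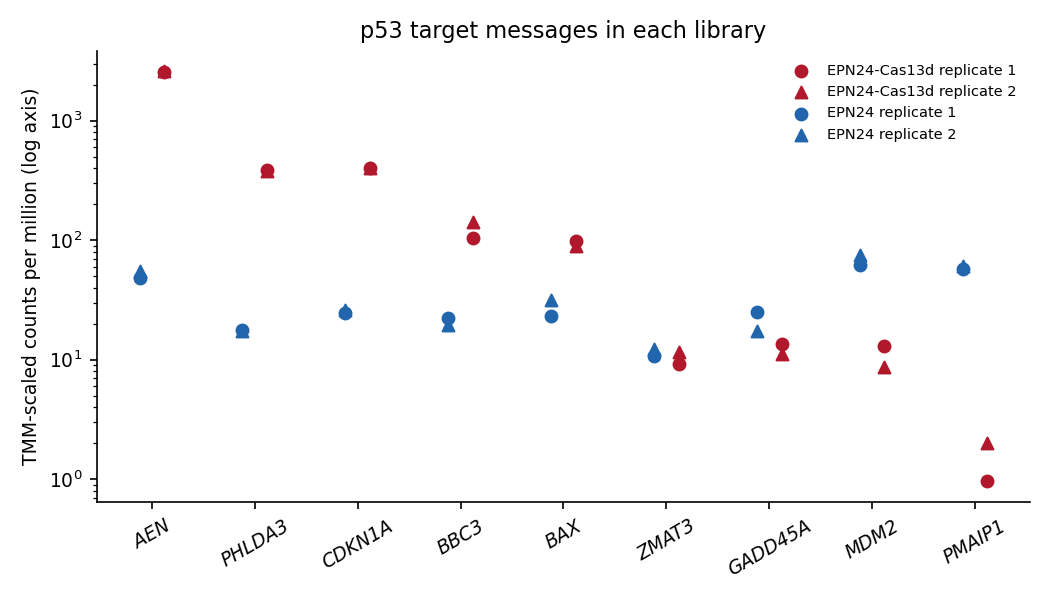
TMM-scaled CPM (log axis) of the 9 p53 target messages in each of the 4 libraries, ordered by fold change; circles are replicate 1 and triangles replicate 2. AEN, PHLDA3, CDKN1A, BBC3 and BAX have both EPN24-Cas13d libraries above both EPN24 libraries, ZMAT3 overlaps, and GADD45A, MDM2 and PMAIP1 lie below.

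The cell-cycle arrest genes split. CDKN1A encodes p21, the inhibitor of cyclin-dependent kinases through which p53 stops the cell in G1 (ENSG00000124762.14, chromosome 6, 36676460 to 36687337 on the plus strand). It measured 399.6 and 404.7 CPM in EPN24-Cas13d and 24.5 and 26.3 CPM in EPN24. The libraries of a group lay close together and the groups were 15.8-fold apart, a log2 fold change of 3.98 (approximate SE 0.15, adjusted p = 9.40e-12 by edgeR). GADD45A, a small acidic protein that responds to DNA damage and growth arrest (ENSG00000116717.13, chromosome 1, 67685201 to 67688334 on the plus strand), measured 13.5 and 11.1 CPM with Cas13d and 25 and 17.5 CPM without. Both EPN24-Cas13d libraries lay below both EPN24 libraries, by a log2 fold change of -0.79 (SE 0.33, adjusted p = 0.0382 by edgeR). This put GADD45A at the 46.1st percentile of tested protein-coding genes, near their middle. That call was narrow: the adjusted p was 0.125, 0.282 and 0.101 without EPN24-Cas13d replicate 1, EPN24-Cas13d replicate 2 or EPN24 replicate 1, 0.0576 with the replicate number as a block, 0.341 without a filter and 0.170 by DESeq2.

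The apoptosis genes spanned the whole range of the 9. AEN, a nuclease induced by p53 that takes part in DNA breakdown in dying cells (ENSG00000181026.15, chromosome 15, 88621337 to 88632281 on the plus strand), measured 2559 and 2584 CPM with Cas13d and 48.6 and 55.1 CPM without. Its groups were 49.6-fold apart, with a log2 fold change of 5.63 (SE 0.12, adjusted p = 8.60e-13 by edgeR), above 99.9% of tested protein-coding genes. BBC3 encodes PUMA, a BH3-only protein that neutralises survival proteins of the BCL2 family (ENSG00000105327.18, chromosome 19, 47220822 to 47232766 on the minus strand). Its levels were 104.8 and 140.9 CPM against 22.3 and 19.4 CPM, a 5.89-fold difference between groups that did not overlap. BAX, the BCL2-family protein that perforates the mitochondrial outer membrane (ENSG00000087088.21, chromosome 19, 48954815 to 48961798 on the plus strand), measured 99.0 and 90.1 CPM against 23.2 and 31.7 CPM. The BBC3 log2 fold change was 2.55 (SE 0.22, adjusted p = 1.03e-07 by edgeR) and that of BAX was 1.79 (SE 0.21, adjusted p = 2.70e-06 by edgeR).

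PMAIP1 went the other way. It encodes NOXA, a second BH3-only protein that p53 induces (ENSG00000141682.12, chromosome 18, 59899996 to 59904305 on the plus strand). Its coding sequence of 165 bases, shown above, lies in the lowest decile of tested protein-coding genes, which ends at 570 bases. Those of PHLDA3 (384 bases), CDKN1A (495) and GADD45A (498) lie in that decile too. The 2 EPN24 libraries each held 128 counts of PMAIP1, at 57.1 and 60.6 CPM. The EPN24-Cas13d libraries held 4 and 8 counts, at 0.961 and 2.01 CPM, although they were the deeper ones. The fitted log2 fold change was -5.28 (SE 0.36, adjusted p = 7.21e-09 by edgeR). Summed counts of 12 against 256, scaled to library size, gave a log2 ratio of -5.32 with a 95% exact binomial interval from -6.29 to -4.49. The BH3-only messages BBC3 and PMAIP1 thus stood at 20.9 ± 2.04 and 58.8 ± 2.48 CPM in EPN24 (SD, n = 2) and at 123 ± 25.5 and 1.49 ± 0.744 CPM in EPN24-Cas13d.

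The feedback and signalling targets also split. MDM2, the ubiquitin ligase of p53 (ENSG00000135679.27, chromosome 12, 68808177 to 68845544 on the plus strand), measured 13.0 and 8.64 CPM in EPN24-Cas13d and 62.1 and 75.2 CPM in EPN24. It was 6.35-fold lower with Cas13d, a log2 fold change of -2.66 (SE 0.26, adjusted p = 4.26e-07 by edgeR). PHLDA3, a PH-domain protein that restrains AKT at the membrane (ENSG00000174307.7, chromosome 1, 201464278 to 201469237 on the minus strand), measured 383 and 380 CPM against 17.8 and 17.3 CPM, a 21.7-fold difference. Its log2 fold change was 4.45 (SE 0.16, adjusted p = 6.41e-12 by edgeR), and the replicates of each group nearly coincided. ZMAT3, a zinc finger protein that binds RNA (ENSG00000172667.11, chromosome 3, 178960121 to 179072215 on the minus strand), measured 9.13 and 11.6 CPM against 10.7 and 12.3 CPM. Its groups overlapped, and the log2 fold change was -0.15 (SE 0.39, adjusted p = 0.726 by edgeR), with a 95% exact binomial interval of the summed counts from -0.68 to 0.38. Under the stricter filter on low counts it was called lower (-1.01, adjusted p = 0.0272 by edgeR). Groups that do not overlap are common here, with 36.8% of tested genes higher and 54.3% lower in both EPN24-Cas13d libraries than in both EPN24 libraries.

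Other annotated genes share exon sequence with 4 of the 9, and since the strand setting is not given, their reads cannot be told apart by strand. For PHLDA3, 18.4% of exon bases are shared with the lncRNA ENSG00000224818 on the same strand, whose counts were 59 and 48.5 with Cas13d and 2 and 1.5 without. For MDM2, 9.5% of exon bases lie opposite the lncRNA ENSG00000257181, 5.3% are shared with a processed pseudogene on the same strand, and 1.6% lie opposite the carboxypeptidase M gene. CDKN1A shares 4.9% of its exon bases with the antisense lncRNA DINOL, which had between 4 and 7.5 counts in each library. The shares for BBC3 were 2.5% and 2.4%, with 2 other annotated loci that held no counts.

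Divided by exon length, the 9 messages lay much closer together in EPN24 than in EPN24-Cas13d. In EPN24 the level per kilobase fell from 26.9 ± 1.13 CPM per kb for PMAIP1 to 1.02 ± 0.100 for ZMAT3 (SD, n = 2), a 26.4-fold span. Between them stood GADD45A (11.0 ± 2.74), BAX (10.6 ± 2.33), AEN (8.68 ± 0.773), CDKN1A (8.48 ± 0.411), MDM2 (8.27 ± 1.11), BBC3 (6.55 ± 0.642) and PHLDA3 (5.42 ± 0.122), all as CPM per kb. The neighbours from GADD45A to MDM2 did not differ beyond their spread. With Cas13d attached, the level per kilobase ran from 430 ± 2.95 CPM per kb for AEN to 0.681 ± 0.340 for PMAIP1, a 632-fold span. CDKN1A (134 ± 1.20) and PHLDA3 (118 ± 0.760) followed AEN, then BBC3 (38.6 ± 8.02) and BAX (36.6 ± 2.44), which did not differ beyond their spread, then GADD45A (6.37 ± 0.877), MDM2 (1.30 ± 0.370) and ZMAT3 (0.917 ± 0.153). By exon length PMAIP1 was thus first of the 9 in EPN24, and in EPN24-Cas13d it and ZMAT3 were lowest, without differing beyond their spread. Exon length counts all annotated exons of a gene, 2587 bp for BAX, 8306 bp for MDM2 and 2186 bp for PMAIP1. Their principal transcripts have 793, 2523 and 1948 nt, so the order may differ by transcript length, which was not tested.

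The 361 olfactory receptor genes, whose products sense odours, were taken as a gauge of unspecific reads, an assumption that was not tested. Their median was 1.68 and 0.914 counts per kb in the EPN24 libraries and 0 in the EPN24-Cas13d libraries. Their mean density was 1.85 and 1.44 counts per kb in the EPN24 libraries and 0.179 and 0.141 in the EPN24-Cas13d libraries. In EPN24, 8 of the 9 messages lay between 6.69 and 40.7 times that density. ZMAT3 lay at 1.15 and 1.6 times it, so its EPN24 level, over an exon length of 11298 bp, was close to that of a gene family of another tissue. With that density subtracted, an alternative chosen after the data were seen, the log2 fold change of ZMAT3 was 0.76 and still not called (adjusted p = 0.368 by edgeR). In EPN24-Cas13d, PMAIP1, at 10.2 and 25.9 times the density there, was the lowest of the 9.

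Counted against the ERCC spike-in, which compares RNA per volume of supernatant, 7 of the 9 messages were higher in EPN24-Cas13d, PMAIP1 alone was lower and MDM2 did not pass the test. With this scaling 58.4% of all tested genes were called higher and 2.33% lower, and the median over those genes moved from -0.96 to 2.38 on the log2 scale, so the 7 higher calls are close to the background. AEN stood at 118.8 and 125.1 counts per 1000 ERCC counts with Cas13d and at 0.245 and 0.232 without, a log2 fold change of 9.0 (SE 0.17). CDKN1A stood at 18.6 and 19.6 against 0.124 and 0.11 counts per 1000 ERCC counts, and PHLDA3 at 17.8 and 18.4 against 0.0899 and 0.0726. BBC3 (4.87 and 6.83 against 0.112 and 0.0816) and BAX (4.6 and 4.36 against 0.117 and 0.133) followed on the same scale. All 5 had both EPN24-Cas13d libraries far above both EPN24 libraries.

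The other 4 were closer between groups on the spike-in scale. GADD45A turned from lower to higher, at 0.625 and 0.536 against 0.126 and 0.0736 counts per 1000 ERCC counts (log2 fold change 2.55, SE 0.36, adjusted p = 4.29e-05 by edgeR). ZMAT3 was also higher, at 0.424 and 0.561 against 0.0539 and 0.0517 (3.21, SE 0.38, adjusted p = 7.37e-06 by edgeR). MDM2 stood at 0.603 and 0.418 against 0.313 and 0.316, so that its groups did not overlap and its direction turned, but the log2 fold change of 0.70 (SE 0.30) had an adjusted p of 0.0633 by edgeR. PMAIP1 stayed lower, at 0.0447 and 0.0975 against 0.288 and 0.255 counts per 1000 ERCC counts (-1.94, SE 0.47, adjusted p = 0.00304 by edgeR) and was the only one of the 9 called lower on this scale. Groups that do not overlap on this scale were 65.9% of tested genes with EPN24-Cas13d higher and 13.6% with it lower. An exact permutation test of 2 against 2 libraries cannot give a p below 0.333, so single values were not tested that way.

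**Figure D2:**
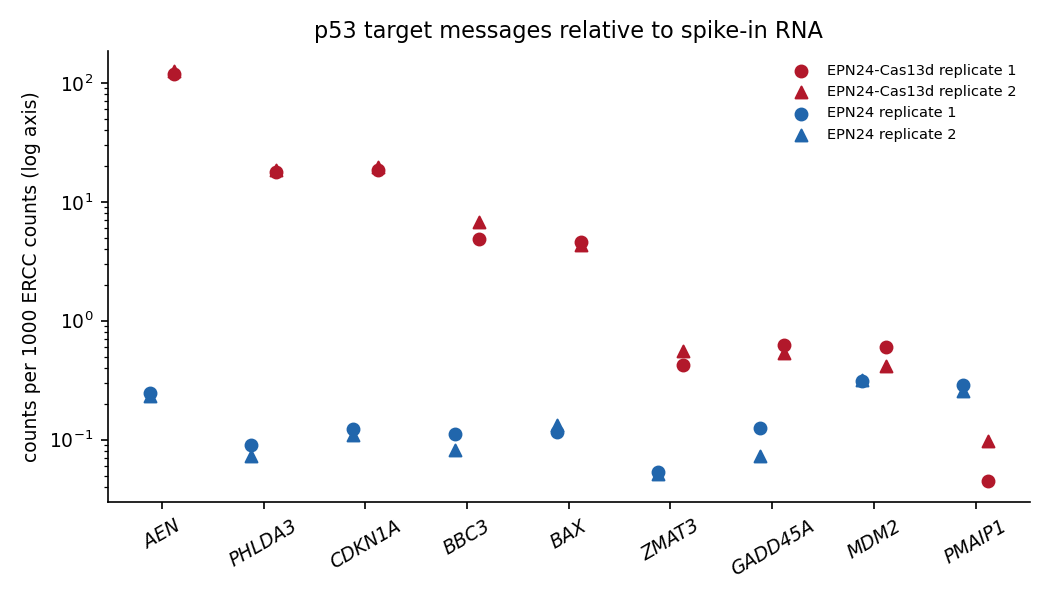
Counts per 1000 ERCC counts (log axis) of the 9 messages in each library; circles are replicate 1 and triangles replicate 2. In EPN24 the group means lie within a 5.96-fold span, from 0.0528 for ZMAT3 to 0.314 for MDM2, and in EPN24-Cas13d within a 1716-fold span, from 0.0711 for PMAIP1 to 122 for AEN.

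The authors' deposited table gives log2 fold changes of 8.97 for AEN, 7.78 for PHLDA3, 7.31 for CDKN1A, 5.88 for BBC3 and 5.13 for BAX. In the same authors' deposited table ZMAT3 is at 3.18, GADD45A at 2.50, MDM2 at 0.67 (adjusted p = 0.357) and PMAIP1 at -1.98 (adjusted p = 0.0130). Each of these 9 values in the authors' deposited table lies 0.023 to 0.045 below the ERCC-scaled value and far from the TMM-scaled one, and over 20476 genes the median differences are -0.031 and 3.32. No source used here gives the size factors behind that table.

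Base composition moved with the fold changes. The GC content of the principal GENCODE transcript was 56.0% for AEN, 58.1% for CDKN1A, 59.6% for PHLDA3, 60.7% for BAX and 69.7% for BBC3, the 5 messages with a higher share. It was 51.5% for GADD45A, 41.8% for MDM2, 39.5% for ZMAT3 and 37.2% for PMAIP1. The sets did not overlap, and the same held for the 3′ untranslated region, with 50.6% to 63.1% in the former 5 and 31.4% to 43.3% in the latter 4. In the coding sequence they did not overlap either, at 61.0% to 76.3% against at most 58.6%. Over the 9 messages the Pearson correlation of transcript GC content with log2 fold change was 0.77 and Spearman's rho 0.65. Over 15141 tested protein-coding genes these were 0.48 and 0.50, as a description across genes of the same 4 libraries, which share depth and library chemistry.

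**Figure D3:**
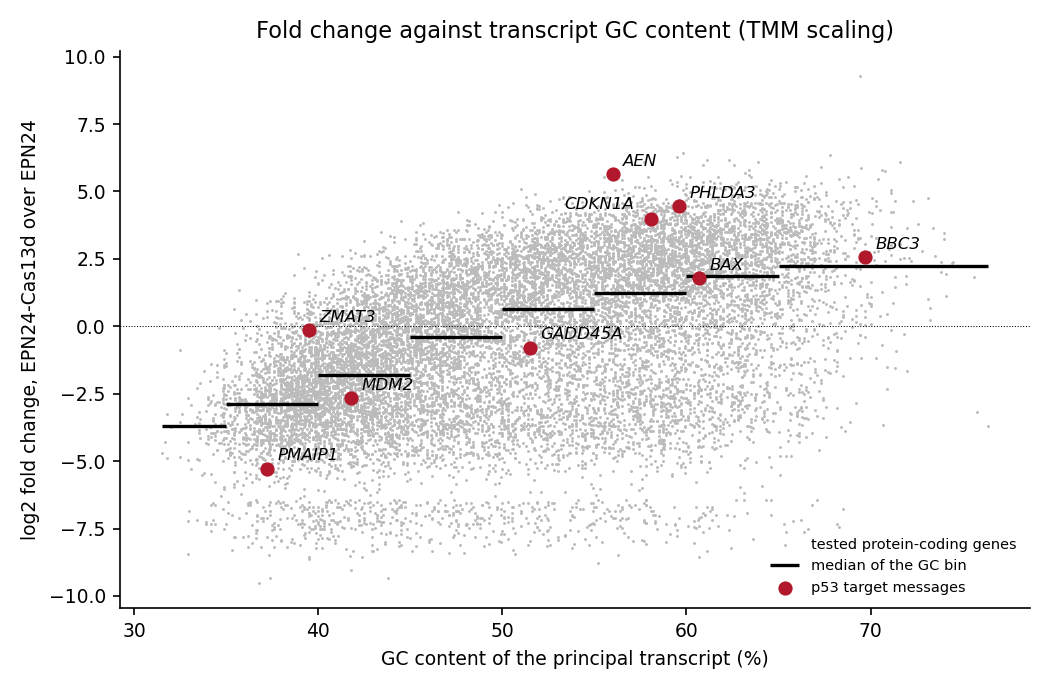
Log2 fold change with TMM scaling (vertical axis) against GC content of the principal transcript in percent (horizontal axis); grey points are 15141 tested protein-coding genes, black bars the median of each GC bin and red points the 9 messages. AEN lies above nearly all genes of its GC content, BBC3 and BAX lie at the median of theirs, and PMAIP1 lies below the median of its bin.

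Set beside genes of like composition, only some of the 9 stood away from the middle. For BBC3 the 83 tested protein-coding genes within 1 percentage point of transcript GC content had a median log2 fold change of 2.40, against 2.55 for BBC3 itself. BAX (1.79) lay as close to the 1.68 of 965 such genes, at the 51.8th percentile. MDM2, at -2.66, compared with a median of -1.94 over 1189 genes. AEN exceeded the median of 998 genes by 4.61 and lay at the 99.9th percentile, while PHLDA3 exceeded its median by 2.90 (96.7th percentile) and CDKN1A by 2.63 (93.1st percentile). ZMAT3 exceeded its median by 2.37, at the 91.5th percentile of 1089 genes. PMAIP1 stood at -2.19 relative to the median of 665 genes (percentile 10.2) and GADD45A at -1.58 relative to the median of 974 genes (percentile 32.6). These percentiles depended on the region measured: by coding sequence and 3′ untranslated region they were 54.8 and 20.7 for MDM2, 32.3 and 76.7 for GADD45A and 50.9 and 76.5 for ZMAT3. AEN lay at 99.6 or above by each of the 3 measures.

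Removing the trend with GC content from all genes ended 2 of the calls and made 1. The trend was taken over each gene's longest transcript, whose GC content was 50.8% for AEN and 58.9% for BAX, lower than in their principal transcripts, and the same or nearly the same as in the principal one for the other members. BBC3 went to a log2 fold change of -0.12 (SE 0.22, adjusted p = 0.644 by edgeR) and BAX to 0.46 (SE 0.21, adjusted p = 0.0609 by edgeR). ZMAT3 was called higher at 1.5 (SE 0.40, adjusted p = 0.00290 by edgeR). AEN, corrected at that lower GC content, went from 5.63 to 5.46. PHLDA3 went to 3.02, CDKN1A to 2.78, MDM2 to -1.43, GADD45A to -1.09 and PMAIP1 to -3.31, each still called in its direction. The part of base composition in the differences was not tested beyond these values.

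**Figure D4:**
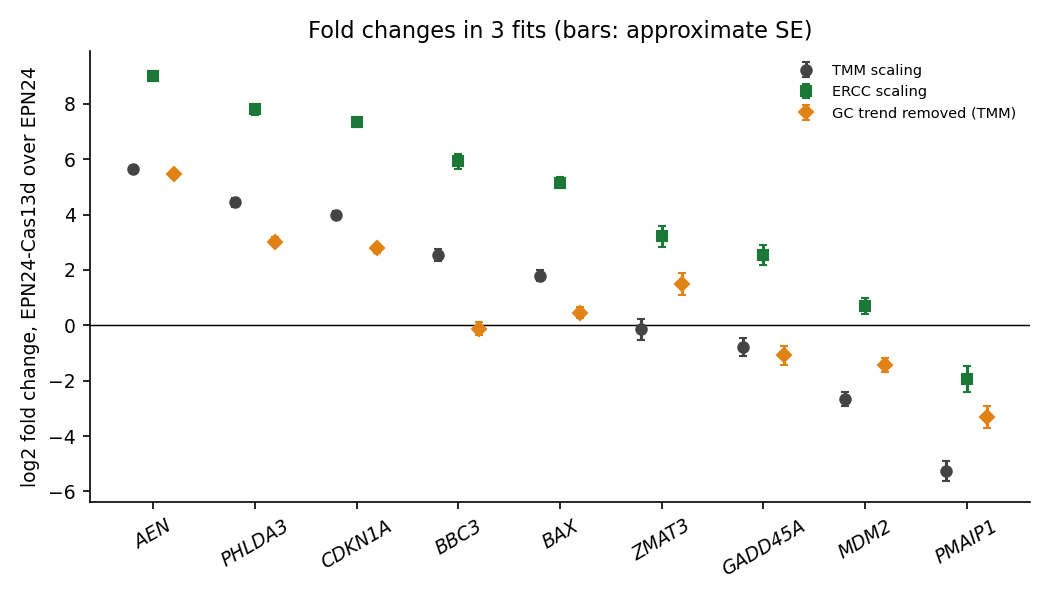
Log2 fold change of EPN24-Cas13d over EPN24 for each message, with approximate SE, in the TMM-scaled fit, the ERCC-scaled fit and the TMM-scaled fit with the GC trend removed. ERCC scaling moves every message up by about the same amount, whereas removing the GC trend, by the longest transcript, brings BBC3 (69.7% GC) to -0.12 and AEN (50.8% GC in that transcript) to 5.46.

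In length of the principal transcript, the messages with a higher share overlapped with the rest of the 9. The part of length in the differences was not tested. The longest principal transcript, that of ZMAT3 with 9406 nt and a 3′ untranslated region of 7794 nt, was not called, and the shortest, that of BAX with 793 nt, was higher. PMAIP1 (1948 nt) and BBC3 (1838 nt) have transcripts of like length and went in opposite directions. Their 3′ untranslated regions, of 1553 and 975 nt, had 31.4% and 63.1% GC.

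MDM4, the relative of MDM2 that binds and inhibits p53, measured 28.8 and 20.1 CPM against 42.4 and 29.8 CPM, so that its groups barely failed to overlap. Its log2 fold change of -0.56 (SE 0.27) had an adjusted p of 0.0710 by edgeR. It was called lower without EPN24 replicate 2 (-0.86, adjusted p = 0.00979 by edgeR), under the stricter filter, with counts halved and with background subtracted. With ERCC scaling it was higher (2.78), and with the GC trend removed it stood at 0.57 and was not called.

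Other direct p53 targets split as the 9 did: of 41 tested among 45 listed, 18 were higher, 11 lower and 12 not called, with a median log2 fold change of 0.67. The background in the same comparison was 32.6% higher and 48.2% lower, and 37.0% and 42.9% among protein-coding genes, against 43.9% and 26.8% of the listed targets. SESN2, a stress-induced sestrin that also answers to other stress pathways, measured 3708 ± 11.5 against 47.5 ± 2.87 CPM (SD, n = 2; log2 fold change 6.28). RRM2B, a ribonucleotide reductase subunit for DNA repair, measured 1.96 ± 0.632 against 17.0 ± 10.6 CPM (-3.09), and with ERCC scaling its log2 fold change of 0.19 did not pass the test. RPS27L, a ribosomal protein paralog, had 0 and 2 counts against 46 and 36. Its summed counts gave a ratio of -6.26 on the log2 scale (95% exact binomial interval -9.33 to -4.36). In EPN24 it lay at only 2.825 and 2.835 times the mean olfactory receptor density. ANKRA2, an ankyrin-repeat protein, had 2 and 0 counts against 23.5 and 28 (-5.60, interval -8.69 to -3.68).

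Regulators and partners of p53 gave 23 higher, 11 lower and 2 not called of 36, with a median log2 fold change of 1.51. These are 63.9% and 30.6%, beside 37.0% and 42.9% of all tested protein-coding genes. With the GC trend removed 5 were lower, in a fit that moved the median over all tested genes from -0.963 to -0.645. The share of all genes called lower in that fit is not given here, so this count is not a result particular to the list. TP73, a p53 family member (239 ± 15.9 against 19.4 ± 7.32 CPM, 3.63), DAXX, a histone chaperone that binds MDM2 (340 ± 29.1 against 32.8 ± 1.22 CPM, 3.36), and PRMT5, an arginine methyltransferase (253 ± 14.8 against 26.2 ± 0.779 CPM, 3.27), were the largest increases. Among genes of at least 5 mean CPM the most negative values were these. TPRKB, a subunit of the KEOPS complex, had 7 and 0 counts against 19 and 32 (-3.72). RCHY1, the ubiquitin ligase PIRH2, measured 1.22 ± 0.656 against 11.1 ± 0.307 CPM (-3.13, turning to 0.19 with ERCC scaling). In EPN24 it lay at only 2.095 and 2.632 times the mean olfactory receptor density. RPL23, a ribosomal protein that binds MDM2, measured 30.4 ± 3.79 against 152 ± 20.7 CPM (-2.31), turning to 1.06 and called higher with ERCC scaling.

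Among 17 tested relatives in the BCL2 family, 11 were higher, 3 lower and 3 not called, with a median log2 fold change of 1.59. These are 64.7% higher and 17.6% lower, where tested protein-coding genes as a whole gave 37.0% and 42.9%. BAK1, the second pore-forming member beside BAX, measured 174 ± 7.84 against 12.5 ± 4.10 CPM (3.81) and BCL2L1, which encodes the survival protein BCL-XL, 104.3 ± 9.82 against 11.3 ± 3.58 CPM (3.21). BCL2L14 had 4 and 2 counts against 38 and 12 (-3.88) and BCL2L15 had 4 and 4 against 16 and 28 (-3.32). Both were close to the mean olfactory receptor density in EPN24. BCL2L14 lay at 4.03 and 1.63 times it there, and BCL2L15 at 0.954 and 2.14 times. The BCL2L14 call was lost without EPN24 replicate 1 (-3.03, adjusted p = 0.0623 by edgeR). PMAIP1, at -5.28, lay below every one of these 17.

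The cyclins, their kinases and inhibitors, among which p21 acts, gave 8 higher, 9 lower and 6 not called of 23 (median 0.34). The shares of 34.8% higher and 39.1% lower are near the protein-coding background of 37.0% and 42.9%. The D-type cyclins, which start the cycle with CDK4 and CDK6, were the largest increases: CCND3 at 265 ± 2.86 against 17.0 ± 1.37 CPM (3.96), CCND2 at 472 ± 4.90 against 34.5 ± 3.75 CPM (3.77) and CCND1 at 68.3 ± 1.08 against 8.94 ± 0.598 CPM (2.93). PCNA, the DNA clamp that p21 binds, measured 4.40 ± 1.94 against 99.7 ± 21.1 CPM (-4.48). RB1, the retinoblastoma protein gene, had 6 and 2 counts against 68 and 37 (-4.55), and CDK1, the mitotic kinase gene, had 0 and 2 against 24 and 42 (log2 ratio -5.95, 95% exact binomial interval -9.02 to -4.04).

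Family relatives of the 9 gave 5 higher, 7 lower and 2 not called of 14 (median -0.75). The share of 35.7% higher and the 7 of 14 lower are near the 32.6% and 48.2% of all tested genes. Among tested protein-coding genes these shares were 37.0% and 42.9%. MDM4, CDKN1B, CDKN1C, BAK1 and BOK also stand in the lists above. REXO4, an exonuclease related to AEN, measured 291 ± 14.9 against 16.7 ± 3.46 CPM (4.14). GADD45B, the relative of GADD45A, had 2 and 8 counts against 44 and 19 (-3.50), with a transcript GC content of 57.4%, the highest among the lower relatives. ZMAT1, a relative of ZMAT3, had 0 and 3 counts against 30 and 24 (log2 ratio -5.07, 95% exact binomial interval -7.39 to -3.45). In EPN24 it lay at only 2.16 and 2.22 times the mean olfactory receptor density.

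**Figure D5:**
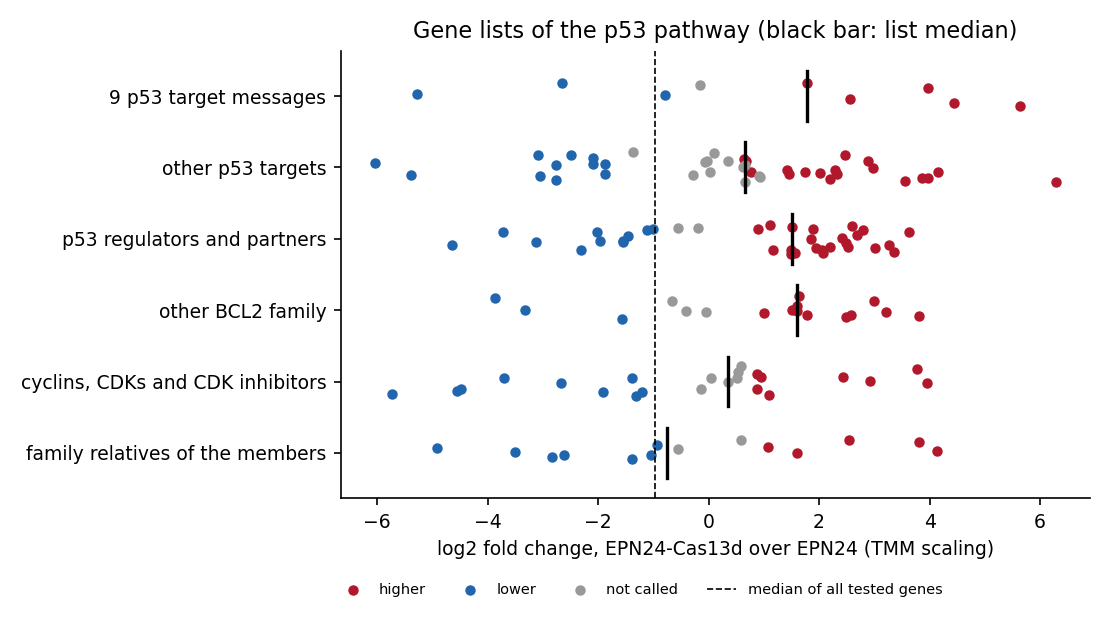
Log2 fold change with TMM scaling (horizontal axis) of the 9 p53 target messages and of tested genes in 5 lists (rows); red points were called higher, blue lower and grey not called, black bars are list medians and the dashed line is the median of all tested genes, -0.96. Each row holds called genes on both sides of 0.

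Within each list the higher genes had a larger median transcript GC content than the lower ones. Higher genes had a median transcript GC content of 54.6% among other p53 targets, 50.6% among regulators, 54.8% in the BCL2 family, 51.6% among cyclins and kinases and 58.8% among the family relatives. The medians of the lower genes were 42.2%, 41.5%, 43.0%, 43.2% and 46.0% in the same order. Genes not called did not always lie between them: among cyclins and kinases their median was 54.8%, above that of the higher genes. By coding sequence the medians of higher and lower family relatives were close, at 59.3% and 58.5%, and single genes such as GADD45B departed from the order.

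By the distance of log2(CPM + 1) over the 4 libraries, the genes whose levels were most like those of CDKN1A were SDF4 (distance 0.040; 407 and 25.5 CPM in the 2 groups), OBSL1 (0.119) and RAB35 (0.130). Those most like MDM2 were DYNC2H1 (0.214; 10.5 and 65.1 CPM), SMC4 (0.339) and U2SURP (0.359).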

How the data were processed

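RNA of the supernatant was measured in 4 libraries. Per the labels' protocols, libraries were made with 17 PCR cycles and read as 150-nt pairs. The tools STAR 2.7.10a, Subread's featureCounts 2.0.1, DESeq2 1.36.0, Trim Galore 0.6.7 and FastQC 0.11.9 and the builds GRCh38 and hg38 are listed in the submitters' processing notes. For the annotation release, strand and multi-mapping settings, the sources used here give no value. A first table, deposited by the authors, holds expected counts per gene with fractions (7.83% to 9.20% of values) and no normalization, and an exon length (other unit). In that file 5 broken lines were left out. A second deposited table holds the authors' mean normalized count (signal), log2 fold change with its SE, Wald statistic (score) and p-values.

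Counts were rounded and fitted over all genes in R 4.3.3 with edgeR 4.0.16 (filterByExpr, TMM without the 92 ERCC rows, robust quasi-likelihood test, Benjamini-Hochberg over 20476 genes, threshold 0.05). Each approximate SE is the size of the log2 fold change over the root of its F statistic. The fit was tried on simulated data in which 200 of 20476 genes were changed. Where the change was 2-fold, it recovered 27% of them. Where it was 4-fold, the share recovered was 65%, and 8 genes were called wrongly. With so few changed genes, the simulation cannot show how the fit performs here, where 80.9% of tested genes were called. Replicates of a group hold different values (chi-square per degree of freedom 2.45 and 3.08 for EPN24-Cas13d and EPN24). Of whole values above 0, 66.8% to 72.4% were even.

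Groups came from the sample titles. Members and lists were chosen with earlier results of these data known. Named genes were the 9 messages, MDM4, the 3 largest and 3 most negative fold changes of called genes of at least 5 mean CPM in each list (2 and 2 for lists under 20 tested genes), and the 3 genes nearest CDKN1A and MDM2. Some genes that the rule names are not reported here. GC content is from GENCODE release 29 on GRCh38, by the APPRIS principal transcript, and for the GC trend by the longest transcript (97.3% of tested genes). Alternatives were RLE size factors, ERCC totals, no filter, a filter of 10 counts and 10 CPM in 2 libraries, DESeq2 1.42.0, a replicate block, each library left out, counts halved, a GC trend removed, and olfactory receptor density subtracted at its median or, added after seeing the data, its mean.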

Additional observations from a re-analysis of the deposited data

How the results depend on the processing

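Across 14 alternatives AEN, PHLDA3, CDKN1A and PMAIP1 kept their direction and call. ERCC scaling shifted the median of all tested genes from -0.96 to 2.38 and moved most counts. With it 1 of the 9 messages was lower in place of 3, other p53 targets were 32 higher and 1 lower, regulators 0 lower, the BCL2 family 0 lower, cyclins and kinases 18 higher and 1 lower, relatives 10 higher and 0 lower, and all genes 11960 higher and 477 lower. ERCC scaling reversed MDM2 (0.70), GADD45A (2.55), ZMAT3 (3.21), RRM2B (0.19), RCHY1 (0.19), RPL23 (1.06), BCL2L15 (0.021) and MDM4 (2.78). Removing the GC trend moved the median of all tested genes to -0.645. In that fit 7 other targets, 5 regulators and 4 relatives were lower, 3 relatives were higher, and BBC3 (-0.12), ZMAT3 (1.5) and MDM4 (0.57) reversed. The stricter filter gave 4 cyclins and kinases and 3 relatives higher and 4889 genes lower of 11735 tested, counts halved gave 5 BCL2 genes lower and 5 cyclins and kinases higher, and no filter gave 3 relatives lower and ZMAT3 at 0.205. DESeq2 gave 5 cyclins and kinases higher and, of relatives, 3 higher and 3 lower. With background subtracted at the median density, 4 cyclins and kinases and 3 relatives were higher, 6469 genes were lower and ZMAT3 was at 0.37. At the mean density these were 4, 3, 5744 and 0.76, with 7 BCL2 genes higher. Leaving out 1 library in turn gave 5 to 8 cyclins and kinases higher and 3 to 5 relatives lower, and ZMAT3 between -0.389 and 0.076, the latter without EPN24-Cas13d replicate 1. Where no count over all genes stands beside them, these list counts are not results particular to the lists. The cause of these shifts was not tested beyond the construction of each alternative.

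The labels do not say whether replicate numbers pair the libraries. Differences between replicates 1 and 2 correlated at 0.0019 between groups over 10060 genes, so no shared replicate effect was seen. This value cannot settle how the libraries were prepared. With the replicate block the counts were 5 higher and 2 lower of the 9, 18 and 10 of other targets, 23 and 11 of regulators, 11 and 3 of the BCL2 family, 8 and 9 of cyclins and kinases, 5 and 5 of relatives, and 6545 and 8496 of all genes. Depth limits PMAIP1 (4 and 8 counts) and MDM2 (54 and 34.3) in EPN24-Cas13d, and ZMAT3 (24 to 46) and GADD45A (37 to 56) in all libraries. Even counts and PCR copies make intervals too narrow.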
